A study of Homo sapiens with 2 samples.

Results

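Binding of OTX2 was examined at 37 photoreceptor genes, which encode the enzymes and channels of phototransduction, the structural proteins of the outer segment and the transcription factors of the photoreceptor lineage. The rule goes by what their products do and uses no ChIP value, but the genes were chosen with earlier results of these data known. Of the 37 genes, 36 have a position in GRCh38 in the gene annotation used and were counted beside all 19881 protein-coding genes of chromosomes 1 to 22, X and Y. The remaining gene, GRK1, was described from its RefSeq promoter. The deposited data came from D283 tumorspheres, spheres grown in suspension from an established medulloblastoma (MB) cell line that expresses OTX2. The study's methods ascribe to this line traits of Group 3 as well as of Group 4 MB. Its ChIP methods name no treatment of the cells. Its results call them OTX2-high, a name it also gives to the scramble siRNA controls of its expression arrays. The data comprised 1 OTX2 ChIP library and 1 input library of the same cells, which received no antibody. There was thus 1 cell line, no replicate and no group without OTX2, and no test or replicate error can be given. No RNA was measured in these libraries, so whether the photoreceptor genes were expressed in these cells was not examined here, and their label as genes of Group 3 tumors could not be checked.

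OTX2 is a homeodomain transcription factor needed for the formation of photoreceptors and of the retinal pigment epithelium. Together with its close relative CRX, it binds short DNA words that begin with TAAT. In photoreceptors, light-activated opsin switches on the G protein transducin, transducin switches on the phosphodiesterase PDE6, PDE6 lowers cGMP, and the cGMP-gated channels close. Guanylate cyclase, its calcium-sensing activators, the arrestins and the opsin kinases then restore the dark state. Group 3 MB tumors are known for expressing parts of this retinal program.

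After removal of duplicates the ChIP library held 61259377 fragments and the input library 22521186. The authors called 137412 peaks against the input. A peak's height is given below as the number of ChIP fragments covering its summit, read back from the deposited pileup, and its strength as the deposited fold enrichment, which divides the pileup plus 1 by the local input plus 1. Over all peaks on these chromosomes the median height was 53 fragments (range 15 to 461) and the median fold enrichment was 6.10. Intervals of heights are exact Poisson 95% intervals, and intervals of shares are Wilson 95% intervals. Both cover counting error only, and genes are not replicates.

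The transcription start site (TSS) window covered 5 kb before and 2 kb after the position where the gene record begins, and any peak sharing at least 1 bp with it was counted. The extended record added 20 kb to each side of the gene. The core promoter ran from 250 bp before to 50 bp after the TSS and counted a summit within it, a view added after the data were seen.

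In the TSS window, 27 of the 36 photoreceptor genes (75.0%, interval 58.9% to 86.3%) had an OTX2 peak, while 57.2% of all protein-coding genes had one. Other protein-coding genes weighted to the same lengths gave 57.8%. The contrast with the background was wider in the core promoter, where 16 of 36 (44.4%, interval 29.5% to 60.4%) had a summit against 21.5% of all protein-coding genes. In the gene record itself, 34 of 36 (94.4%, interval 81.9% to 98.5%) had a peak, against 69.5% of all genes and 71.0% of other genes weighted to the same lengths. With 20 kb added to each side the count of photoreceptor genes was again 34, but the background rose to 88.1%, which left little room for a difference.

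**Figure D1:**
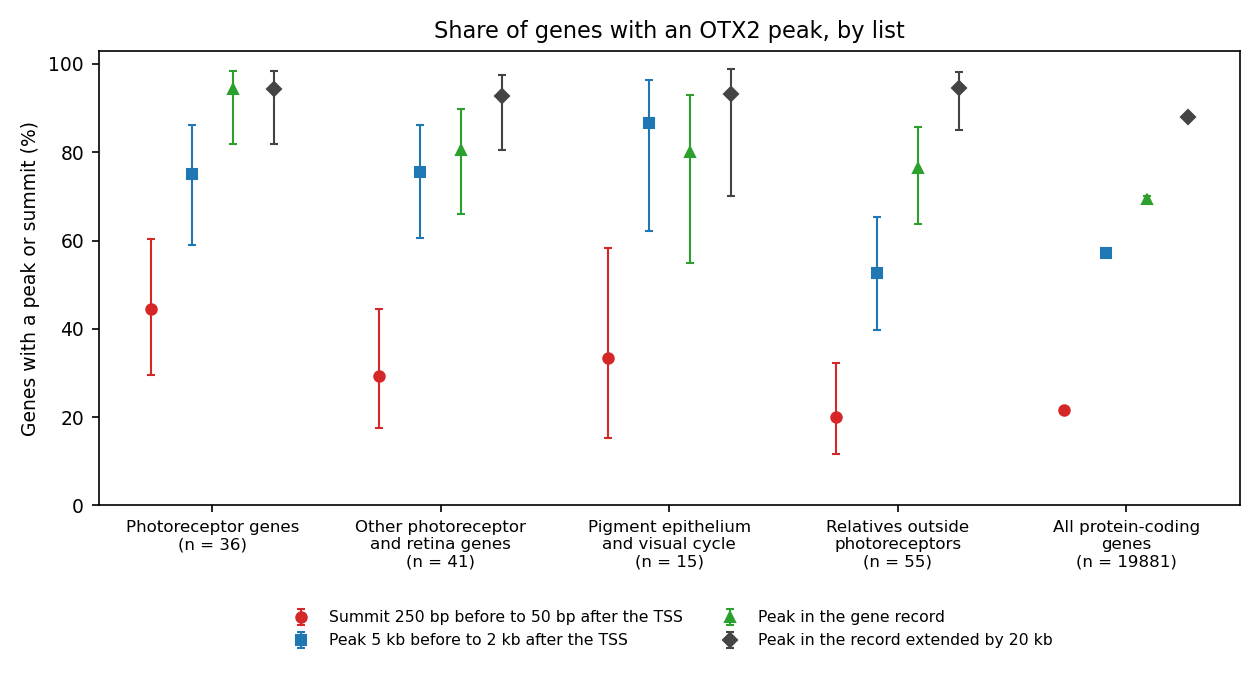
Share of genes (percent, vertical axis) with an OTX2 summit in the core promoter, a peak in the TSS window, a peak in the gene record and a peak in the record extended by 20 kb, for the photoreceptor genes, the 3 comparison lists and all protein-coding genes. Bars are Wilson 95% intervals. The photoreceptor genes had a core promoter summit in 44.4% of cases, and all protein-coding genes in 21.5%.

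The strongest peaks were also taller. The strongest TSS-window peak of a photoreceptor gene had a median fold enrichment of 14.5 (27 genes) and a median height of 124 fragments. For the other protein-coding genes with a peak these medians were 6.39 and 53 fragments (11340 genes). Photoreceptor genes with a window peak had a median of 2 of them, and other such genes 1. Taking the strongest of more peaks favours a higher value by construction. Of the 27, 17 lay above the upper quartile of the other genes, which 25.0% of those genes exceed by construction, 7 lay in the middle of the distribution and 3, PDE6G, RP1 and ROM1, lay below the lower quartile. The local input under these peaks was close in both sets, with a median of 5.22 for photoreceptor genes and 4.91 for other genes on the scale of the deposited pileup. With a fold enrichment of at least 5 required, 24 of 36 photoreceptor genes (66.7%) kept a TSS-window peak against 38.4% of other genes, and all 16 core promoter summits remained against 12.7% of other genes.

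**Figure D2:**
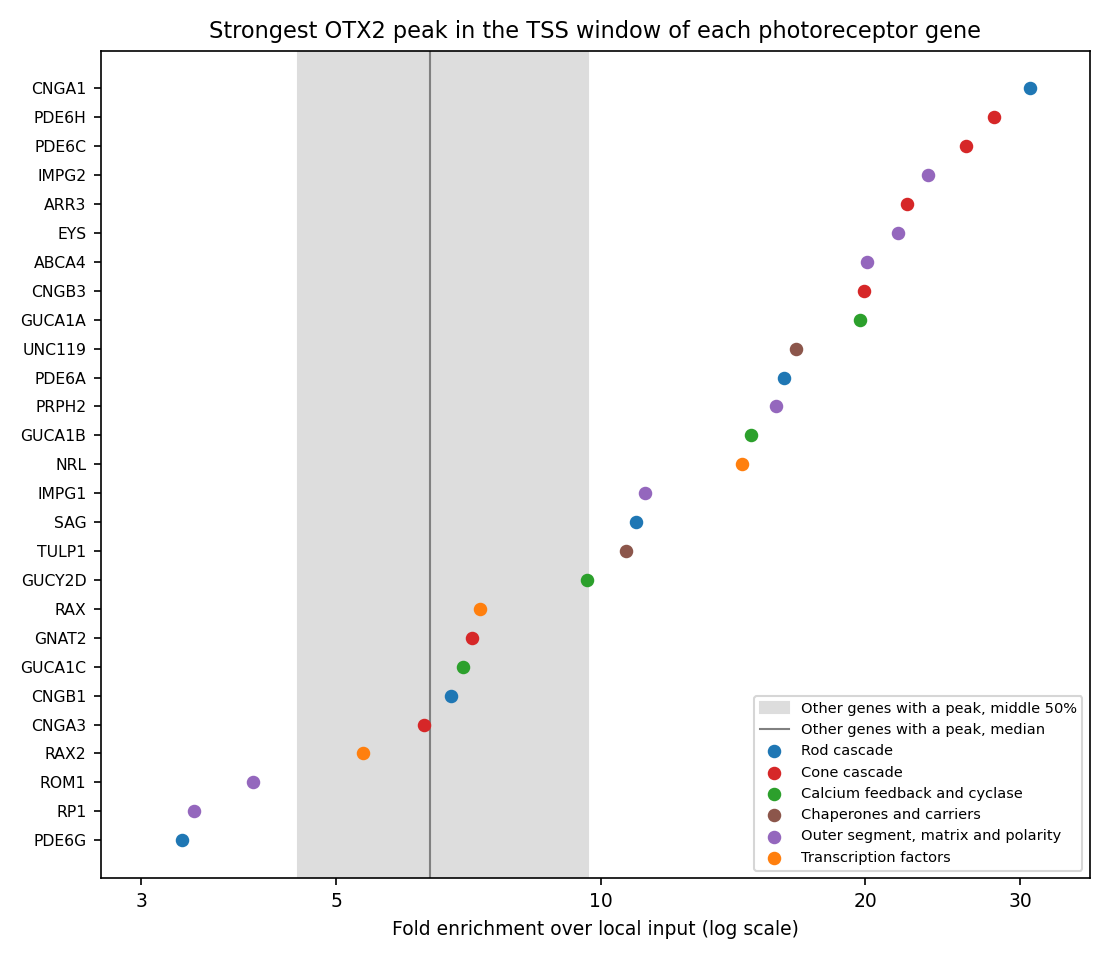
Fold enrichment over local input (log scale, horizontal axis) of the strongest TSS-window peak of the 27 photoreceptor genes that had one, ranked and coloured by role. The grey band is the middle 50% of other protein-coding genes with a peak and the grey line their median of 6.39. CNGA1 (30.7) stood highest and PDE6G (3.34) lowest.

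The core promoter summits lay close to the TSS. All 16 were upstream of it, by 9 to 167 bp with a median of 47.5 bp. The core promoter reaches 250 bp before but 50 bp after the TSS, which favours upstream summits by construction. Among strongest TSS-window peaks, 74.1% of those of photoreceptor genes and 64.5% of those of other genes had an upstream summit. That window, with 5 kb before and 2 kb after the TSS, also favours upstream summits, and the difference was not tested. The heights of the 16 core promoter summits ran from 35 to 387 fragments, with fold enrichments of 5.36 to 28.0. Their median fold enrichment was 15.5, against 5.59 for the strongest core promoter peak of other genes. In bins of 500 bp, 44.4% of the photoreceptor genes had a summit in the bin just upstream of the TSS, and 23.9% of the other genes. In the next bin upstream 0 of 36 photoreceptor genes had one, and 6.08% of the other genes.

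**Figure D3:**
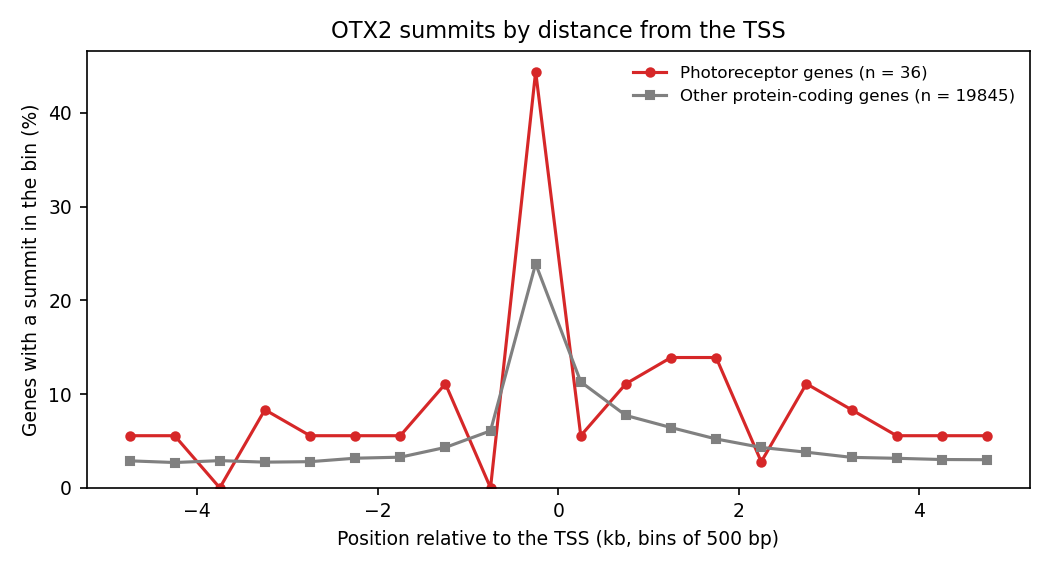
Percent of genes (vertical axis) with an OTX2 summit in each bin of 500 bp over the 5 kb on each side of the TSS, for the 36 photoreceptor genes and 19845 other protein-coding genes. Both curves are highest in the bin just upstream of the TSS, at 44.4% and 23.9%. A single photoreceptor gene moves its curve by 2.78 percentage points.

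The promoter sequences were read next, since the summits sat in them. The RefSeq promoter table of GRCh38.p14 gives 250 bases before and 50 bases from the TSS on, and it held 28 of the 37 genes. ABCA4, AIPL1, CNGB3, GUCA1B, PDE6G, RAX2, RBP3, RCVRN and RP1 were not matched. The letters searched were TAATCC and TAATCT on both strands, which on the other strand read GGATTA and AGATTA. These are the OTX2 motifs named in the study, and both cannot match at the same position of a strand. A match is a description of the letters and not a binding site.

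The first set shows a selection of the 15 promoters with both a summit and a match. CNGB1, GNAT2, GUCA1C, GUCY2D and IMPG1 also had both and are not printed. Each stretch is written on the strand of the gene and ends at the TSS or at the nearest annotated exon before it. The matches are in capitals.
PDE6H, chr12:14972862-14973041, plus strand: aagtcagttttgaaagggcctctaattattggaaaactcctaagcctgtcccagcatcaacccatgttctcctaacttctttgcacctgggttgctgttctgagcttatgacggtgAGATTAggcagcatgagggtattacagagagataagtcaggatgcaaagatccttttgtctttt
PDE6C, chr10:93612357-93612536, plus strand: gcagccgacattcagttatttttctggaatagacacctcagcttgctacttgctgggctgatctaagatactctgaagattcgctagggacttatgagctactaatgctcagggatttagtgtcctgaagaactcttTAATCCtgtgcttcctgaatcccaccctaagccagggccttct
ARR3, chrX:70268125-70268304, plus strand: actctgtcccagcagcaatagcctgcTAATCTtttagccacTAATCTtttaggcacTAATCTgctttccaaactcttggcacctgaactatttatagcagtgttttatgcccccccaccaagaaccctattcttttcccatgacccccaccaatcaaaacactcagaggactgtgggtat
SAG, chr2:233307636-233307815, plus strand: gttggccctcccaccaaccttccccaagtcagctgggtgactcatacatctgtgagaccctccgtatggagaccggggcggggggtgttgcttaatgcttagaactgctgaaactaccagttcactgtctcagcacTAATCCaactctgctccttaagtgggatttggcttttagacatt
PDE6A, chr5:149944794-149944973, minus strand: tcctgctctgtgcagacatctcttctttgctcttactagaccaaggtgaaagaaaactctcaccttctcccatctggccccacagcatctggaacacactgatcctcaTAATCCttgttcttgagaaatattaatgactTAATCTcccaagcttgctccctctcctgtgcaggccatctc
GUCA1A, chr6:42173153-42173332, plus strand: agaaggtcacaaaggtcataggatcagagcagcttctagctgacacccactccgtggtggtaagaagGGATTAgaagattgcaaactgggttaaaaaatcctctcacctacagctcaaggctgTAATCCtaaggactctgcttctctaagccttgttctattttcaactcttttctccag
EYS, chr6:65707227-65707406, minus strand: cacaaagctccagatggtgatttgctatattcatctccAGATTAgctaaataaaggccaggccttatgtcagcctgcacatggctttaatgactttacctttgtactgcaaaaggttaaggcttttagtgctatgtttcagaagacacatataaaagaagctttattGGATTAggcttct
IMPG2, chr3:101320576-101320755, minus strand: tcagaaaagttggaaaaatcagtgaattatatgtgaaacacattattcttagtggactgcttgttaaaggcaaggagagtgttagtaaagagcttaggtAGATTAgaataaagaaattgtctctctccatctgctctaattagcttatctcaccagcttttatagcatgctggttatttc
PRPH2, chr6:42722598-42722777, minus strand: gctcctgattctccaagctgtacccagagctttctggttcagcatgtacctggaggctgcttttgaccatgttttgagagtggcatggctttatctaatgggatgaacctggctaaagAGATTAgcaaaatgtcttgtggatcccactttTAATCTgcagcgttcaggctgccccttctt
NR2E3, chr15:71810374-71810553, plus strand: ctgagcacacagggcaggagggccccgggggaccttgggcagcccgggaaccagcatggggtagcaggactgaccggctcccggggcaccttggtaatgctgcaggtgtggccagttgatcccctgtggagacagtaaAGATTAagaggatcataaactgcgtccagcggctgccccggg

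In ARR3, 3 copies of TAATCT followed each other at intervals of 15 bases, and the summit lay 196 bp upstream of the RefSeq TSS, 16 bp from the nearest copy. In SAG a single TAATCC began 44 bases before the TSS and the summit lay 10 bp from it. In PRPH2 the distance between the summit and the nearest match was 2 bp, the shortest of the 15 promoters. The longest was 83 bp, in GNAT2. In PDE6A TAATCC and TAATCT began 72 and 41 bases before the TSS, in the same orientation.

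The second set shows an exception of each kind: a promoter with a summit and no match (GRK1), and a promoter with a match and no summit (PDE6B).
GRK1, chr13:113667039-113667218, plus strand: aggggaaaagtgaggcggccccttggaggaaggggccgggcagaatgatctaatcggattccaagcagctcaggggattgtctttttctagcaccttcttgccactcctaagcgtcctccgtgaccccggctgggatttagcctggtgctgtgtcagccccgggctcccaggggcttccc
PDE6B, chr4:625393-625572, plus strand: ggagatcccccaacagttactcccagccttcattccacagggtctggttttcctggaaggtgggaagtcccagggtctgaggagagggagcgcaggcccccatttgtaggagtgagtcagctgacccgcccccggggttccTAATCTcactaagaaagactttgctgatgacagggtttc

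Among the 28 promoters, 18 (64.3%) held at least 1 match, while 10.2% of the 15843 protein-coding promoters in the table did. A summit lay in 17 of the 28 (60.7%), against 24.8% of all promoters in the table. Of the 17 with a summit, 15 (88.2%) held a match, against 14.5% of all promoters with a summit, and the other 2 were GRK1 and RAX. Of the 11 without a summit, 3 held a match (CRB1, PDE6B and TULP1), while 8.82% of other promoters without a summit did. At least 2 matches were present in 7 of 28 promoters (25.0%, against 1.16% of other promoters). TAATCT was present in 14 and TAATCC in 7 of the 28 photoreceptor promoters, against 5.44% and 5.30% of the other promoters. Among promoters with a summit, 12 and 6 of the 17 photoreceptor promoters carried them, against 6.08% and 8.89% of the others. The distance from the summit to the nearest match had a median of 15.5 bp in the 15 photoreceptor promoters, and 16.5 bp in the 554 other promoters that held both. It was at most 50 bp in 13 of the 15 (86.7%) and in 77.3% of the others. Summit and match both had to lie in the same 300 bases, which limits this distance, and the difference in spacing was not tested.

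**Figure D4:**
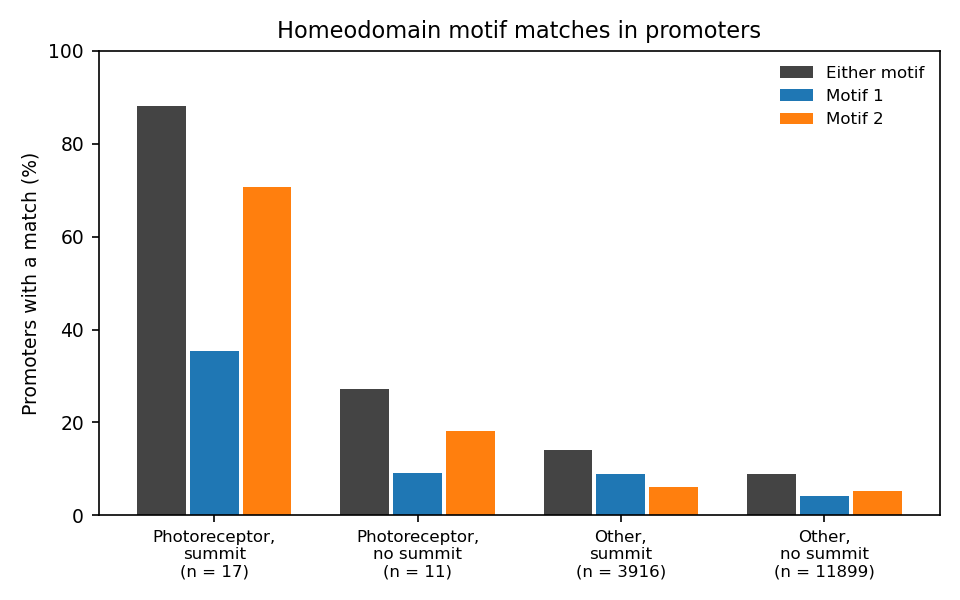
Percent of RefSeq promoters of 300 bases (vertical axis) that hold either motif, motif 1 (TAATCC) or motif 2 (TAATCT), on either strand, split by whether an OTX2 summit lies in the promoter. A match was found in 15 of 17 photoreceptor promoters with a summit (88.2%) and in 14.1% of other promoters with one.

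The single genes follow by role. Other genes weighted to the lengths of each role had a window peak in 51.9% to 60.9% of cases. They had a core promoter summit in 19.9% to 23.8%. With 4 to 9 placed genes per role, differences of single roles from these shares were not tested. In the rod cascade, 5 of 7 placed genes had a TSS-window peak and 3 a core promoter summit, and the median fold enrichment of the strongest window peaks was 11.0. SAG, rod arrestin, was covered by 133 fragments (interval 111 to 158) at a summit 32 bp upstream, an enrichment of 11.0-fold. PDE6A, a catalytic subunit of the rod phosphodiesterase, had a peak at chr5:149944659-149945195 that was tallest 47 bp upstream (139 fragments, fold enrichment 16.2). CNGB1, the modulatory subunit of the rod channel, had a lower summit of 63 fragments 25 bp upstream (fold enrichment 6.76). The summits of these 3 genes thus lay 25 to 47 bp upstream and differed in height.

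CNGA1, the pore-forming subunit of that channel, had no core promoter summit. Its peak at chr4:48018123-48018769 lay 1732 bp upstream and held 334 fragments (interval 299 to 372). Its fold enrichment of 30.7 was the highest in a TSS window of any photoreceptor gene. PDE6G, the inhibitory subunit of the rod phosphodiesterase, had the weakest window peak, 4654 bp upstream (35 fragments, fold enrichment 3.34), and the TSS of CCDC137 was nearer to it. A taller PDE6G peak (fold enrichment 17.8, 168 fragments) lay in the first intron of the canonical transcript, 946 bp downstream of that transcript's TSS, and the gene record of NPLOC4 began slightly nearer to it than that of PDE6G (7131 and 7516 bp).

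GNAT1, the rod transducin alpha subunit, and PDE6B, the partner of PDE6A, had no peak in the window. GNAT1 had a single small peak in the extended record, in intron 7, with 21 fragments and a fold enrichment of 3.30. PDE6B had its strongest peak in intron 15 (94 fragments, fold enrichment 14.1). The gene record of MYL5 began nearer to it (9950 bp) than that of PDE6B (38057 bp). The summit of this peak, however, lay in the core promoter of another PDE6B transcript. GRK1, rhodopsin kinase, had a peak at chr13:113666867-113667383 with its summit 86 bp upstream of the RefSeq TSS, 110 fragments (interval 90.4 to 133) and a fold enrichment of 10.2, and a smaller one 1506 bp downstream (27 fragments, fold enrichment 4.18).

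In the cone cascade, 6 of 7 genes had a window peak and 4 a core promoter summit, with a median fold enrichment of 21.1 in the window. PDE6H, the inhibitory subunit of the cone phosphodiesterase, had 4 window peaks. The tallest relative to input was at chr12:14972739-14973301, 48 bp upstream, where 224 fragments (interval 196 to 255) stood 28.0-fold over input. Another, 1400 bp downstream in intron 1, reached 22.4. PDE6C, the catalytic subunit of the same enzyme, likewise had a peak at the TSS (70 bp upstream, 245 fragments, fold enrichment 15.1) and one in intron 1, 1664 bp downstream, with 199 fragments and a fold enrichment of 26.0. Both subunits of the cone enzyme thus had a promoter peak and an intronic peak. This layout was not particular to them. PDE6A of the rod enzyme also had an intron 1 peak, 1772 bp downstream (76 fragments, fold enrichment 5.17).

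ARR3, cone arrestin, had a peak at chrX:70267286-70268553 with 150 fragments (interval 127 to 176) and a fold enrichment of 22.3. CNGB3, a cone channel subunit, had the tallest core promoter peak, at 387 fragments (interval 349 to 428), 133 bp upstream, with a fold enrichment of 19.9. The local input under it was 13.3, the highest under any of these 27 peaks, and above 12.0, which is 3 times the floor. Its partner CNGA3 had a single smaller window peak, 1156 bp downstream in an intron (50 fragments, fold enrichment 6.29). GNAT2, the cone transducin alpha subunit, had 2 window peaks of at most 7.13, and a much stronger one in intron 2 of its canonical transcript (217 fragments, fold enrichment 32.1), to which the TSS of AMPD2 was nearer. GRK7, the cone opsin kinase, had none in the window and 7 within its introns, of which the strongest reached 13.6.

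The median of the cone genes exceeded that of the rod genes in the TSS window (21.1 against 11.0), but the values overlapped. The rod genes ran from 3.34 to 30.7 and the cone genes from 6.29 to 28.0, and with 5 and 6 genes from 1 library no test of the difference was made.

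Of the 5 genes for cyclase and calcium feedback, 4 had a window peak and 3 a core promoter summit. GUCA1A encodes a calcium sensor that activates guanylate cyclase, and its peak at chr6:42172898-42173584, 101 bp upstream, had 267 fragments and a fold enrichment of 19.7. GUCA1B, a second such activator, is its neighbour on the opposite strand, and 8 peaks fell in the extended records of both. Its own window peak lay 2838 bp upstream (124 fragments, fold enrichment 14.8). GUCA1C, the third activator, reached 72 fragments 36 bp upstream (fold enrichment 6.74). GUCY2D, the cyclase itself, reached 64 fragments 33 bp upstream (fold enrichment 9.64), and had a stronger peak in intron 19 (24.8).

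RCVRN, recoverin, which restrains rhodopsin kinase in the dark, stood apart from the other 4. It had no peak in the extended record. The edge of the nearest one was 49.5 kb from the TSS, with 87 fragments and a fold enrichment of 13.0. RBP3, the retinoid carrier of the matrix between photoreceptors and pigment epithelium, was the only other placed gene with none, and its nearest peak was 35.9 kb from the TSS (30 fragments, fold enrichment 4.63).

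Of the 9 genes for the outer segment, its matrix and cell polarity, 7 had a window peak and 5 a core promoter summit. EYS, an extracellular matrix protein, was bound 67 bp upstream, with 295 fragments (interval 262 to 331) and 21.8-fold enrichment. ABCA4, a flippase of the disc membrane that clears retinoid adducts, was bound 42 bp upstream (135 fragments, fold enrichment 20.1). PRPH2, a tetraspanin of the disc rim, was bound 61 bp upstream (106 fragments, fold enrichment 15.8). The proteoglycans IMPG2 and IMPG1 of the interphotoreceptor matrix had theirs 50 and 9 bp upstream, with 157 and 96 fragments and fold enrichments of 12.1 and 11.2. All 5 exceeded the median of other genes with a core promoter summit (5.59).

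IMPG2 had 5 window peaks, the most of any photoreceptor gene, and the strongest of them (fold enrichment 23.6) only reached into the window from a summit 5328 bp upstream. ROM1, the partner of PRPH2 in the disc rim, had a single low window peak with 26 fragments and a fold enrichment of 4.02, 198 bp from the TSS of EML3. RP1, a microtubule protein of the outer segment, had 22 fragments and a fold enrichment of 3.44 at 2257 bp upstream of its gene record. The canonical RP1 transcript starts 106674 bp further on, and a summit of 63 fragments lay 55 bp before that start (fold enrichment 9.49). CRB1, an apical polarity protein, had no window peak and its strongest was in intron 1 (187 fragments, fold enrichment 13.9).

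Among the 4 chaperones and carriers, TULP1 and UNC119 had a window peak (50.0%) and 0 had a core promoter summit. Other genes weighted to their lengths gave 56.5% and 22.1%. TULP1, a tubby-like protein of the photoreceptor, had its strongest 541 bp downstream of the TSS (71 fragments, fold enrichment 10.7). UNC119, which carries lipid-modified transducin, had its strongest window peak 3034 bp upstream (154 fragments, fold enrichment 16.7). A taller UNC119 peak lay outside the window in intron 1, 3181 bp downstream (357 fragments, fold enrichment 17.6). The summits of that intron 1 peak and of the TULP1 peak lay in the core promoter of another transcript of each gene. AIPL1, the chaperone of PDE6, had a single peak in the extended record (31 fragments, fold enrichment 4.77). PDC, phosducin, which binds the beta and gamma subunits of transducin, had none in the window but a peak 18286 bp upstream (321 fragments, fold enrichment 32.4), to which no other protein-coding TSS was nearer.

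Of the 4 transcription factors, 3 had a window peak (75.0%) and 1 a core promoter summit (25.0%). Other genes weighted to their lengths gave 51.9% and 19.9%. The core promoter summit, that of RAX2, a retinal homeobox factor, was low (11 bp upstream, 35 fragments, fold enrichment 5.36). NRL, the leucine zipper factor that sets rod fate, had a peak 766 bp downstream (129 fragments, fold enrichment 14.5). It lay 49 bp from the TSS of DCAF11, a neighbouring gene. Stronger NRL peaks lay in introns 1 and 2 of the canonical transcript, with fold enrichments of 25.7 and 23.2. The gene record starts of PCK2 (7286 bp) and CPNE6 (11206 bp), respectively, were nearer to them than that of NRL. The summit of the 23.2-fold peak, however, lay in the core promoter of another NRL transcript. RAX, the homeobox factor of the early eye field, had its strongest window peak 1471 bp upstream (68 fragments, fold enrichment 7.29). NR2E3, a nuclear receptor that keeps cone genes off in rods, had no window peak at its gene record, but the canonical transcript starts 17916 bp downstream, and 17 bp before that start a small summit of 27 fragments (interval 17.8 to 39.3) reached 3.48-fold.

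**Figure D5:**
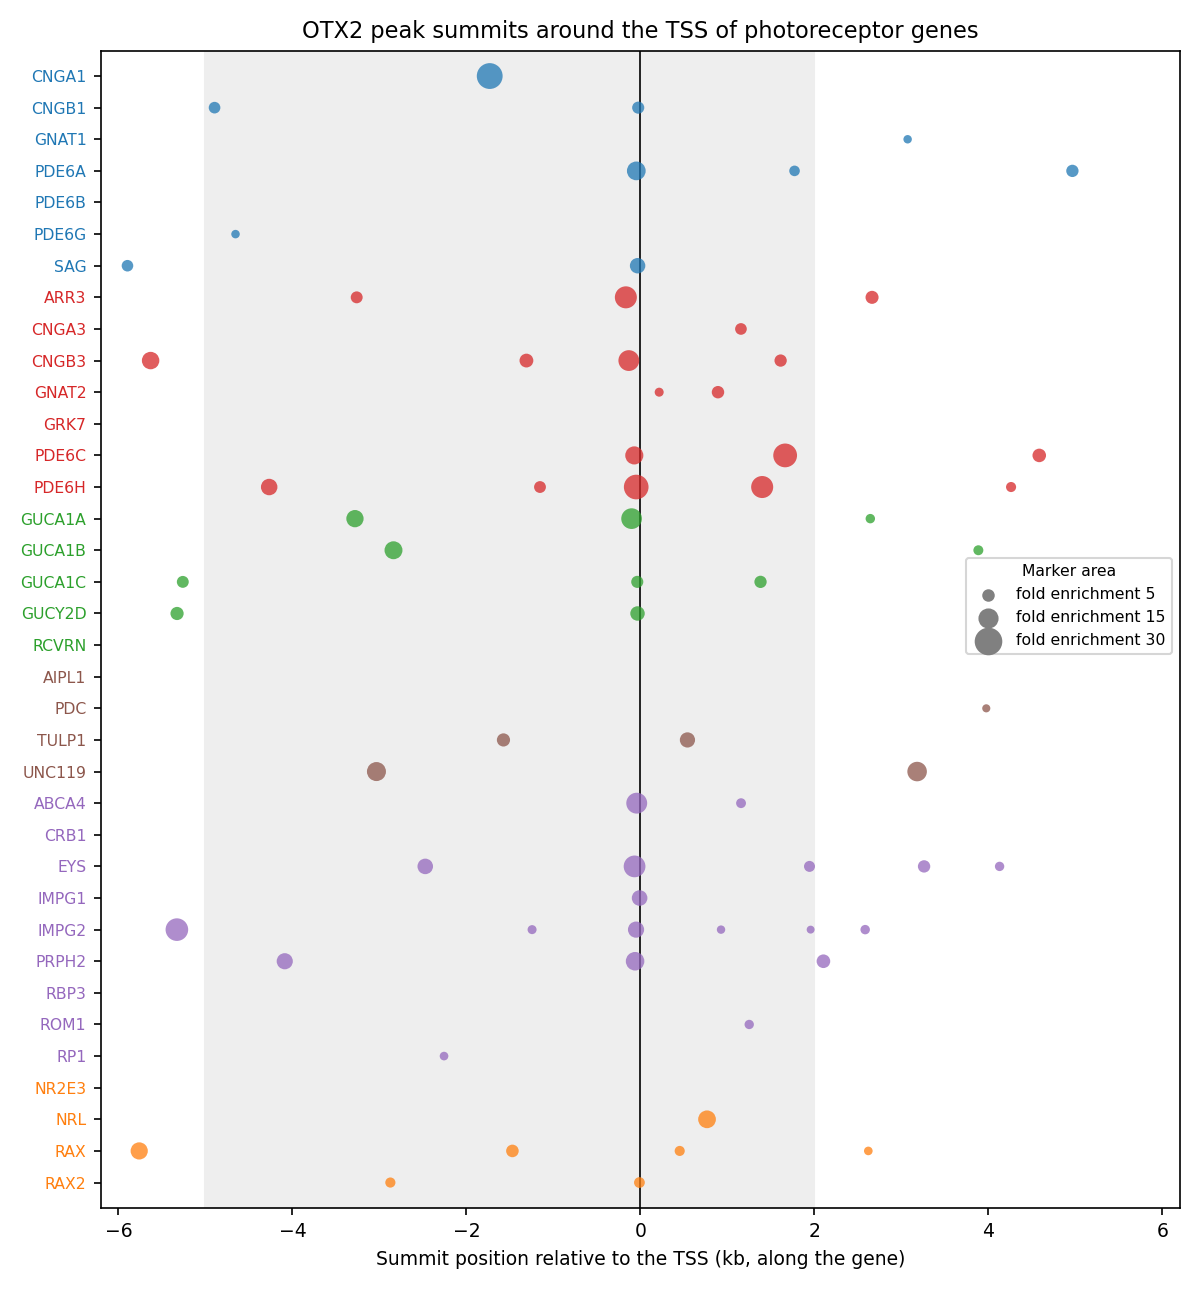
Position of every OTX2 summit within 6 kb of the TSS (horizontal axis, kb along the direction of transcription) for the 36 placed photoreceptor genes, coloured by role, with marker area proportional to fold enrichment. The shaded band is the TSS window. A column of 16 summits stands 9 to 167 bp upstream of the TSS, and 9 genes have no peak in the band.

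Start sites therefore bore on the single genes. With the TSS of the canonical transcript, RP1, NR2E3, GNAT2 and RAX gained a core promoter summit, which gave 20 of 36 (55.6%) against 24.6% of other genes. The gained summit of RP1 had a fold enrichment of 9.49. Those of RAX (4.70), GNAT2 (3.74) and NR2E3 (3.48) lay below the minimum of 5 that all 16 earlier summits met. Of the 52 peaks in the TSS windows, 4 were nearer to the TSS of another protein-coding gene, namely those of NRL, ROM1 and PDE6G and a second one of CNGB1. Without such peaks 24 of 36 photoreceptor genes (66.7%) kept a window peak, against 50.6% of all protein-coding genes, and all 16 core promoter summits remained.

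Across whole genes, the photoreceptor genes had a median of 7.94 peaks per 100 kb of extended record, and the other genes 5.09, at median gene lengths of 31.2 kb and 27.6 kb. Of the 36, 27 had more peaks per 100 kb than the median gene of their length group and 9 had fewer. PDE6H (26.6 per 100 kb, 13 peaks), GUCA1A (22.9, 11 peaks) and GUCA1B (21.3, 11 peaks) were densest. AIPL1 (1.23) and CNGB1 (1.55) were sparsest among those with any. EYS, the longest gene at 1987 kb, held 65 peaks, or 3.21 per 100 kb. The 333 distinct peaks of these genes lay mostly in introns (177) and upstream of the canonical transcript (96), with 57 downstream of it and 3 in exons. EYS alone gave 65 of the 333. Places were not counted for other genes, so these counts show no trait particular to the photoreceptor genes.

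The strongest peak of the extended record lay outside the TSS window in 26 of the 34 genes with any peak (76.5%), close to the 81.5% of all protein-coding genes with any peak. Photoreceptor genes with any peak had a median of 7 in the extended record (other genes 5), and more peaks favour a higher strongest one. The strongest peak of the extended record had a median fold enrichment of 19.7 (other genes 12.8). The highest was 39.3 near SAG, at chr2:233360616-233361940, downstream of the gene and 6882 bp from the TSS of DGKD (265 fragments, interval 234 to 299). The next was 35.5 in intron 12 of IMPG1, at chr6:75991496-75992671, with 250 fragments, and no other protein-coding TSS was nearer to it. Those of PDC (32.4) and GNAT2 (32.1), given above, followed. Of the 333 peaks, 123 were nearer to the TSS of another protein-coding gene, and no such share was taken over other genes. For the 8 peaks shared by GUCA1A and GUCA1B this count took GUCA1A as the gene, so it includes some nearest to GUCA1B. Which gene a distant peak acts on was not tested.

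Other lists were set beside these genes. Among 41 other photoreceptor and retina genes, 31 (75.6%) had a window peak and 12 (29.3%) a core promoter summit, with a median fold enrichment of 10.7. The strongest were KCNV2, a cone and rod potassium channel subunit (34.8, summit 90 bp upstream), RPGRIP1, a protein of the connecting cilium (32.0, 95 bp upstream), and RGS9BP, the anchor of the complex that shuts transducin off (30.3), whose peak was nearer to the TSS of ANKRD27. CRX, the related factor of the photoreceptor lineage, had a peak 294 bp downstream of its TSS with 197 fragments and a fold enrichment of 20.8. OTX2 itself had 4 window peaks, and the strongest was low, at 4.67 with 60 fragments, 4115 bp upstream.

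Among 15 genes of the pigment epithelium and visual cycle, where OTX2 also acts, 13 (86.7%) had a window peak and 5 (33.3%) a core promoter summit, with a median fold enrichment of 6.74, and RGR (29.9), DCT (22.6) and BEST1 (19.8) were highest. The peak of RGR was nearer to the TSS of LRIT2. The list of 55 relatives that serve other tissues, such as the broadly expressed arrestins and G protein alpha subunits, served as a comparison by protein family. Of these, 29 (52.7%) had a window peak and 11 (20.0%) a core promoter summit, with a median fold enrichment of 7.07, all near the values over all protein-coding genes. ABCA7 (26.5), GNAI2 (23.9) and TULP3 (14.6) were highest. By share of genes, the photoreceptor genes stood above their relatives in the window and the core promoter. In the extended record the shares were close, at 52 of 55 relatives (94.5%) and 34 of 36 photoreceptor genes (94.4%). The other photoreceptor and retina genes had a median of 8.25 peaks per 100 kb of extended record. This median was 9.02 for the pigment epithelium list and 5.38 for the relatives. In the same order, the strongest peak of the extended record had median fold enrichments of 23.3, 23.1 and 13.3. On both measures the retina and pigment epithelium lists exceeded the photoreceptor genes (7.94 and 19.7), and the relatives did not. These are descriptions of 1 library with no test.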

How the data were processed

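An OTX2 ChIP library and an input library of D283 tumorspheres were sequenced, mapped to GRCh38 with bowtie2 2.2.4, and peaks were called with MACS2 2.1.0.20140616 by the authors, who kept 1 fragment per position, used a q-value cutoff of 0.05 and state that blacklisted regions were masked. The deposited pileup is a coverage signal at each summit, which the caller scaled by library size. Fold enrichment was deposited as a ratio (pileup plus 1 over local input plus 1), and significance as the −log10 of each peak's q-value. The p-value column was not used. ChIP depth exceeded input depth 2.72 times, and the shallower input sets how precise a ratio can be. Each fragment added 0.735 to the pileup, and 100.0% of pileups fell within 0.02 of a whole number of fragments.

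Gene positions came from GENCODE release 44, lifted to GRCh37 in the copy used here. That copy lists for every exon where it lay in GRCh38, and these listed places alone were taken. Promoter sequences and the GRK1 position came from RefSeq (GRCh38.p14). Shares of other genes were weighted to the gene lengths of the photoreceptor genes over 10 length groups. The motif search was limited to TAATCC and TAATCT in the RefSeq promoters. Every photoreceptor gene is named with its strongest window peak, its nearest peak or its strongest peak in the extended record. Of the other genes, CRX, OTX2 and the 3 with the highest fold enrichment in each list are named, and neighbours are named where their TSS was nearer to a described peak in a TSS window or within a gene. Photoreceptor genes and comparison lists were chosen with earlier results of these data known, so their counts are no independent support. The core promoter, its alternatives and the limit to peaks nearest to the gene's own TSS were chosen after seeing the data. Stricter peak thresholds, other windows, other start sites, RefSeq records, chromosomes and length groups were also tried. Counting was tested on simulated peaks placed at 200 genes. It found 200 of them, and a gene-by-gene search gave equal calls for 19881 genes. The software was Python 3.11.15 with numpy 2.4.6, pandas 2.3.3, matplotlib 3.10.9 and scipy 1.17.1.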

Additional observations from a re-analysis of the deposited data

How the results depend on the processing

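The number of photoreceptor genes with a TSS-window peak lay between 21 and 32 under 11 alternatives, lowest within 1 kb of the TSS (21 of 36, 58.3%, other genes 46.9%) and highest with the TSS of any transcript (32 of 36, 88.9%, other genes 66.6%). The number with a peak in the extended record lay between 32 and 36 under 7 alternatives. With a 50 kb extension it was 36 of 36, where 94.1% of other genes had a peak. Core promoter summits numbered 15 to 25 under 8 alternatives, and the TSS of any transcript moved them most, to 25 of 36 (69.4%, other genes 34.6%). This setting tests more start sites per gene by construction. With TAATCC alone, 7 of 28 promoters (25.0%) held a match, against 5.30% of other promoters. This setting drops TAATCT, the commoner of the 2 in these promoters. In each of these settings the share of the photoreceptor genes exceeded that of the other genes. No paired analysis was possible because each kind of library was made once, so none could be left out either.

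No replicate, no control antibody and no OTX2-depleted library was analysed here. An input library less deep than the ChIP library limits the fold enrichment of single peaks.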
